A study of Mus musculus with 9 samples.

Results

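The genes described here are 7 members of the mouse Trim30 cluster on chromosome 7: Trim30a, Trim30b, Trim30c, Trim30d, Trim12a, Trim12c and Trim34a. They were listed by name, because earlier results of these same data had shown several of them far lower in treated than in untreated diabetic kidneys. All 7 had a row among the 55359 genes of the count table, and all 7 passed the filter on low counts that left 17179 genes for testing. The values that led to their choice came from the comparison of treated with untreated diabetic mice, so that comparison is given below as a description only.

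The study sequenced messenger RNA of whole mouse kidney, with 9 libraries that fall into 3 groups of 3. The control group, NCD vehicle in the labels, ate a normal calorie diet with 11.32% of its calories from fat, starting at 6 weeks of age. The diabetic group, HFD-STZ vehicle, ate from the same age a diet that drew 49.0% of calories from fat, and on days 60 and 63 it was injected with streptozotocin at 30 mg/kg, a toxin of the insulin-producing beta cells. The treated group, HFD-STZ DHZ, had that diet and those injections too, and then received dehydrozingerone, a phenolic compound of ginger, by mouth at 50 mg/kg for 2 weeks. Blood glucose was tested on day 65, before that dosing. Groups were read from the sample titles, because the treatment field names the compound for every library. Not given in the sources used here are strain, sex and the nature of the vehicle. Nothing in the labels says that each sample was a separate animal, so p-values measure the spread between these samples, which may be technical. Every library also has its own batch date, in the order of the groups, and an effect of batch and one of group cannot be told apart.

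TRIM proteins carry a RING domain, a B-box and a coiled coil, and many of them attach ubiquitin to other proteins. In the mouse the neighbours of Trim5 have been duplicated into a cluster of close paralogs, several of which are known to be induced by interferon in immune cells and to act in antiviral defence. Trim30a is known from macrophages and dendritic cells as a brake on inflammation: it promotes loss of Tab2 and Tab3, adaptors of the kinase TAK1, and it has been reported to restrain the NLRP3 inflammasome and STING. Whole kidney is mostly tubular epithelium, with resident macrophages as a minor population.

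The start regions of these genes differed in whether they held the core of an interferon-stimulated response element, a short sequence found near the starts of many interferon-induced genes. The search used the letters GAAANNGAAA, which read TTTCNNTTTC on the other strand, in RefSeq promoters of build GRCm38.p6 from 250 bases before to 50 bases after each start. It matched 1131 of 32851 mouse promoters, or 3.44%. The match was present in Trim30a, Trim30d, Trim12c, Trim12a and Trim34a, and these letters were not in the windows of Trim30b and Trim30c. The 150 bases upstream of Trim30a (chr7:104465194-104465343, minus strand) and of Trim30d (chr7:104507850-104507999, minus strand) are shown because the pair are nearly the same in sequence and yet had different counts. Each is written 5′ to 3′, with the matched letters in capitals.
Trim30a: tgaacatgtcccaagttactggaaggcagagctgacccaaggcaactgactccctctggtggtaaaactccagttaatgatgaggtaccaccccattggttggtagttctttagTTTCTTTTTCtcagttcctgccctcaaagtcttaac
Trim30d: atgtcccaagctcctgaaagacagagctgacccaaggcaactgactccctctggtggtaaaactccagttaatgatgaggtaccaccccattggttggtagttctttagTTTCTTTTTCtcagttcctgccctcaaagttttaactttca
Over the whole promoter windows, 276 of 295 aligned bases of Trim30a and Trim30d were identical, or 93.6%. The match starts 36 bases before the first listed start of Trim30a and 41 bases before the start of Trim30d. In the window of a second listed start of Trim30a, the match begins at base 3 counted from that start.

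The 30 bases around the match in the other members are shown beside those of Trim5, a neighbour whose counts did not follow the members. They lie at chr7:104353359-104353388 for Trim12c, chr7:104315466-104315495 for Trim12a, chr7:104288136-104288165 for Trim5, all on the minus strand, and at chr7:104244457-104244486 for Trim34a on the plus strand, in the same build.
Trim12c: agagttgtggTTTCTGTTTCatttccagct
Trim12a: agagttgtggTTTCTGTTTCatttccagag
Trim5: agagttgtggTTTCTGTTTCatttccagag
Trim34a: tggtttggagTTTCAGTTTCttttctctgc
The match starts 29 bases before the start of Trim12c and 49 before that of Trim5. In Trim12a and Trim34a it begins after the start, at base 11 counted from it. Trim12a and Trim5 were identical over 241 of 241 aligned promoter bases. A match of letters is a description of these windows, and binding was not measured.

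The libraries held 15.1 to 47.5 M counts, of which 39.2% to 60.4% lay on the 37 genes with symbols starting mt-, the genes of the mitochondrial genome. Together with genes annotated as unprocessed pseudogenes, the mt- genes took from 58.3% of counts in control replicate 3 to 86.6% in diabetic replicate 2. Diabetic replicate 2 stood apart: it had the highest mt- share (60.4%), 2.13 M counts on nuclear coding genes against 3.94 to 15.2 M in the others, and 19397 genes with a count against 23027 to 26201. Levels are given as CPM, counts per mega (M) of library size, after trimmed mean of M-values (TMM) scaling, which sets the libraries so that most genes are at similar levels in all of them. Library-size CPM, which divide by the whole count of the library, are given where it matters. The TMM factor of diabetic replicate 2 was 0.327, against 0.715 to 1.63 in the others, so its scaled values are raised relative to its share of all counts. Scaling by library size alone shifted the median log2 fold change over all genes to -0.74 for diabetic kidneys against control kidneys and to 0.81 for treated kidneys against diabetic kidneys, so both scalings are shown. The kidney marker genes were abundant, with the thick ascending limb transporter Slc12a1 at 334.5 to 1232 TMM-scaled CPM. The 5 neutrophil markers summed to 0.135 to 1.79 TMM-scaled CPM, with Ly6g at 0 counts in every library, and the 6 B cell markers to 2.83 to 19.5.

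Trim30a was the most abundant member. Its TMM-scaled level was 1299.7, 643 and 508 CPM in the 3 control libraries, 608, 8901 and 1198 in diabetic kidneys, and 284, 149 and 427 in treated kidneys. The 3 treated libraries lay below the 6 others, and diabetic replicate 2 lay far above the rest. In library-size CPM, Trim30a was at 937, 905 and 829 in control kidneys, 742, 2909 and 857 in diabetic kidneys, and 351, 203 and 532 in treated kidneys. On that scale the control libraries and diabetic replicates 1 and 3 were close together, and the treated libraries still lay below the 6 others. In whole tissue, fewer cells that express a gene and less of its RNA per cell cannot be told apart.

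By count, Trim30a ranked first among nuclear coding genes in diabetic replicate 2, where it took 3.10% of their counts. It ranked between 6 and 17 in the other untreated libraries, and 42, 195 and 22 in the treated ones. For a gene best known from immune cells, it was therefore among the most counted coding genes of every untreated kidney library. The marker Ptprc, which all leukocytes carry, was at 2.41 to 4.39 TMM-scaled CPM in the 6 untreated libraries and at 6.43 to 13.5 in the treated ones.

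The paralog Trim30c had 261, 141 and 107 CPM in control kidneys, 133, 1761 and 219 in diabetic kidneys, and 63.4, 36.7 and 85.8 in treated kidneys. Trim30b had 149, 80.1 and 60.9 CPM in control kidneys, 68.1, 981 and 111 in diabetic kidneys, and 42.9, 19.9 and 50.7 in treated kidneys. Both had the order of Trim30a, with the treated libraries lowest and diabetic replicate 2 highest.

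Trim12c, a counterpart of Trim5 that has been reported to act with Traf6 in interferon and NF-kB signalling, had 384, 237 and 175 CPM in control kidneys, 237, 2792 and 353 in diabetic kidneys, and 104, 65.9 and 157 in treated kidneys. Trim34a had 47.5, 30.4 and 25.5 CPM in control kidneys, 33.6, 251 and 37.1 in diabetic kidneys, and 12.0, 8.81 and 18.4 in treated kidneys. Again the treated libraries did not overlap either other group.

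Trim12a also had the treated libraries lowest and diabetic replicate 2 highest, but a narrower range and another order between them. It had 29.4, 24.9 and 22.9 CPM in control kidneys, 30.3, 78.1 and 22.4 in diabetic kidneys, and 14.6, 13.2 and 16.5 in treated kidneys. In library-size CPM it ran from 16.0 to 37.0 in diabetic kidneys and from 18.0 to 20.6 in treated kidneys, so these groups overlapped on that scale. Diabetic replicate 2 was then at 25.5, below the 37.3 of control replicate 3. Trim30d was near the detection limit, with 0.749, 1.74 and 1.51 CPM in control kidneys, 1.25, 2.43 and 1.32 in diabetic kidneys, and 1.53, 1.76 and 1.77 in treated kidneys, from 14 to 114 counts a library. The Trim30d groups overlapped in every comparison on TMM scaling, although the gene carries the response-element letters in a promoter that closely matches that of Trim30a.

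**Figure D1:**
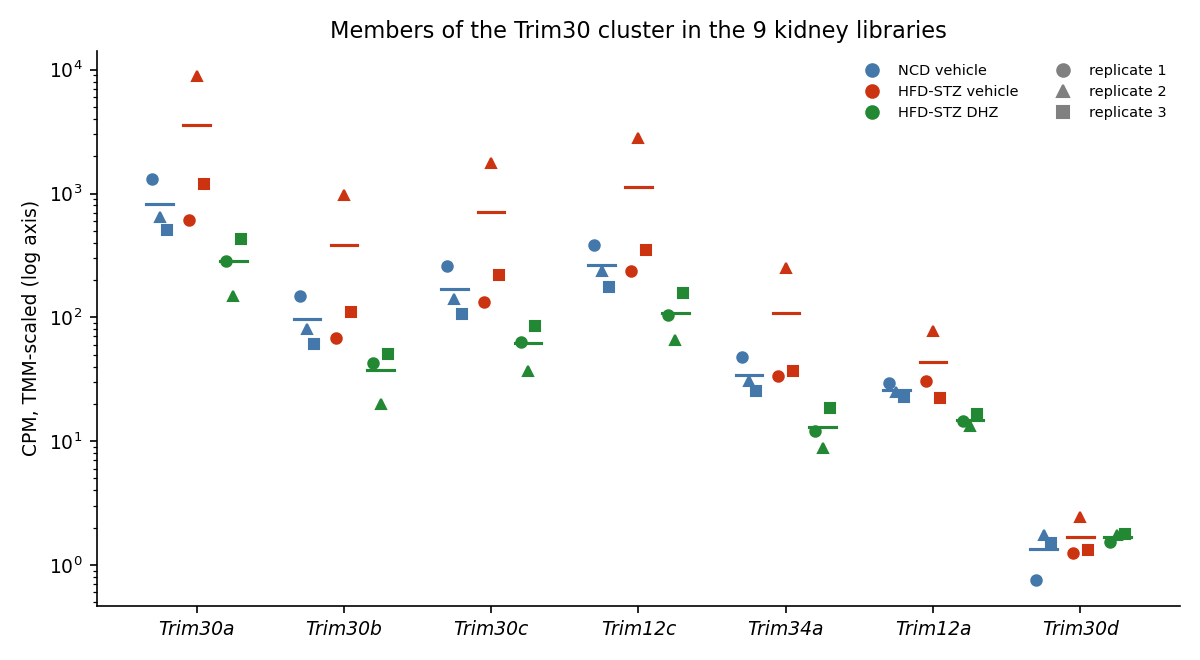
TMM-scaled CPM of the 7 members on a log axis in the 9 libraries, with symbols for replicates, colours for groups and horizontal bars for group means. For 6 members the 3 treated libraries lie below both other groups and diabetic replicate 2 is highest, while Trim30d stays between 0.749 and 2.43. Of all genes tested, 19.0% were lower without overlap against diabetic kidneys and 21.7% against control kidneys. The share of genes with both is not given here.

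Per kilobase of exon, taking exon lengths of the GENCODE M21 annotation of GRCm38, the control levels ran in the order Trim30a 199 ± 103, Trim30c 98.6 ± 47.1, Trim12c 70.9 ± 28.7, Trim34a 13.3 ± 4.46, Trim30b 12.8 ± 6.14, Trim12a 4.44 ± 0.575 and Trim30d 0.355 ± 0.139 CPM per kilobase (SD, n = 3). Within a library each gene of that order lay above the next in 9 of 9 libraries, except that Trim34a lay above Trim30b in 5 of 9, so the positions of that pair did not differ beyond their spread. The place of Trim30b depends on its length, since its annotated exons add up to 7.53 kb against 1.72 kb for Trim30c.

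Among themselves, 5 members kept a nearly fixed proportion. Trim30a made up 56.6 ± 3.49% of the members' summed counts (SD, n = 9 libraries), Trim12c 19.9 ± 1.5%, Trim30c 11.9 ± 0.374%, Trim30b 6.74 ± 0.673% and Trim34a 2.44 ± 0.464%. These shares do not depend on how libraries are scaled. The number of Trim30a counts per Trim30c count ran from 4.06 to 5.47 while the Trim30a count itself ran from 9667 to 65993. The highest ratio was 1.35 times the lowest for Trim30c, 1.5 times for Trim12c, 1.63 times for Trim30b and 2.09 times for Trim34a.

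Trim12a and Trim30d did not keep that proportion. Trim12a took 0.529% to 4.46% of the members' counts, and its ratio to Trim30a spanned 10.1 times. In diabetic replicate 2 it had 579 counts beside 65993 of Trim30a, and in treated replicate 2 it had 854 beside 9667. The ratio of Trim30a to Trim30d spanned 43.2 times.

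**Figure D2:**
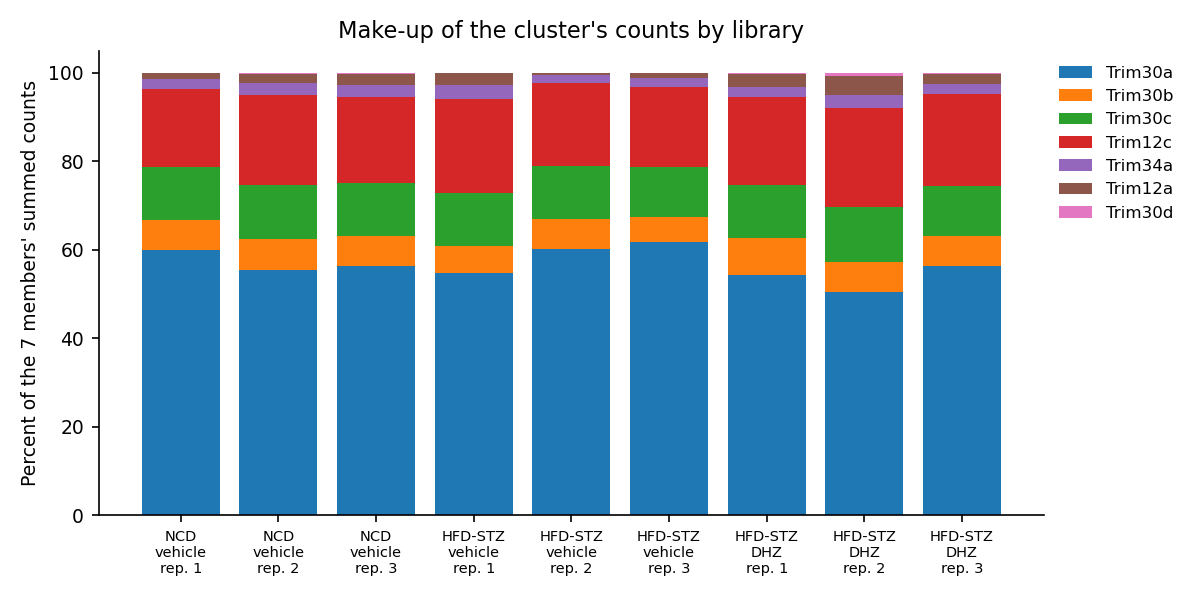
Share of the 7 members' summed counts that each member takes in each of the 9 libraries, as stacked bars in percent. Trim30a stays between 50.5% and 61.7%, and Trim30c between 11.3% and 12.4%, in libraries whose summed members range from 17781 to 109480 counts.

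Reads shared between paralogs can be counted for either gene, so the annotated transcripts were compared for identical 31-base words. Trim30a shared 31 of its 4080 words with Trim30c, 24 with Trim30b, 23 with Trim12c and 348 with Trim30d. At a word length of 50 bases, Trim30a shared 243 of 4061 words with Trim30d and with no other gene compared. Trim12c shared 1402 of 3619 words (38.7%) with Trim5, and Trim34a shared 1276 of 2618 (48.7%) with Trim34b, so the counts within these pairs are uncertain. The library kit keeps the strand. Not given in the sources used here is whether the counting used it and how reads with several matches were counted. Trim34a overlaps the antisense gene Gm47248 and Trim12a overlaps Gm15133, which makes their counts uncertain for that reason too.

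Along the chromosome, the high counts did not run evenly through the cluster. In the order of the GRCm38 annotation the genes are Olfr649, Trim6, Trim34a, Trim5, Trim12a, Trim34b, Trim12c, Trim30b, Trim30c, the processed pseudogene Gm45471, Trim30a, Trim30d and the pseudogene Trim30e-ps1. The beta-globin genes Hbb-bt and Hbb-bs lie beyond a row of olfactory receptor genes with few counts. Of 57 genes with a row between Hbb-bt and Trim30e-ps1, 25 reached 10 counts in any library and 8 had at least 100 counts in every library. Those 8 are the members other than Trim30d together with Olfr649 and Gm45471.

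Olfr649, an odorant receptor gene of the nose, had 1301, 857 and 1157 counts in control kidneys, 570, 4256 and 1347 in diabetic kidneys, and 527, 511 and 788 in treated kidneys. The number of Trim30a counts per Olfr649 count stayed between 15.5 and 22.2. Gm45471 had 2056, 1270 and 1692 counts in control kidneys, 1053, 5695 and 2324 in diabetic kidneys, and 908, 943 and 1143 in treated kidneys, with 10.3 to 12.9 Trim30a counts to each. The promoter window of Olfr649 also held the response-element letters, 131 bases before its start. Neither gene shares a 31-base word with any member, and both were picked out after their values were seen, the former also by the rule for likeness given below.

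Trim5, which lies between Trim34a and Trim12a, did not have that order of libraries. It had 24 to 165 counts and levels of 3.30 ± 0.614, 3.14 ± 0.766 and 2.98 ± 0.459 CPM in control kidneys, diabetic kidneys and treated kidneys (SD, n = 3 each). The ratio of Trim30a to Trim5 spanned 46.9 times. Trim34b, between Trim12a and Trim12c, had 1 to 17 counts, and Trim30e-ps1, beyond Trim30d, at most 12. Trim6, known for ubiquitin chains that activate the interferon kinase IKK-epsilon, had 3.41 ± 0.752, 9.06 ± 7.34 and 2.35 ± 0.0722 CPM in the same group order, and its ratio to Trim30a spanned 8.03 times, less than the 10.1 of Trim12a. On TMM scaling its 3 treated libraries, at 2.27 to 2.41 CPM, lay below the 6 others and diabetic replicate 2 was highest at 17.5, as in 6 of the members, while in library-size CPM its groups overlapped and that library was not the highest.

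**Figure D3:**
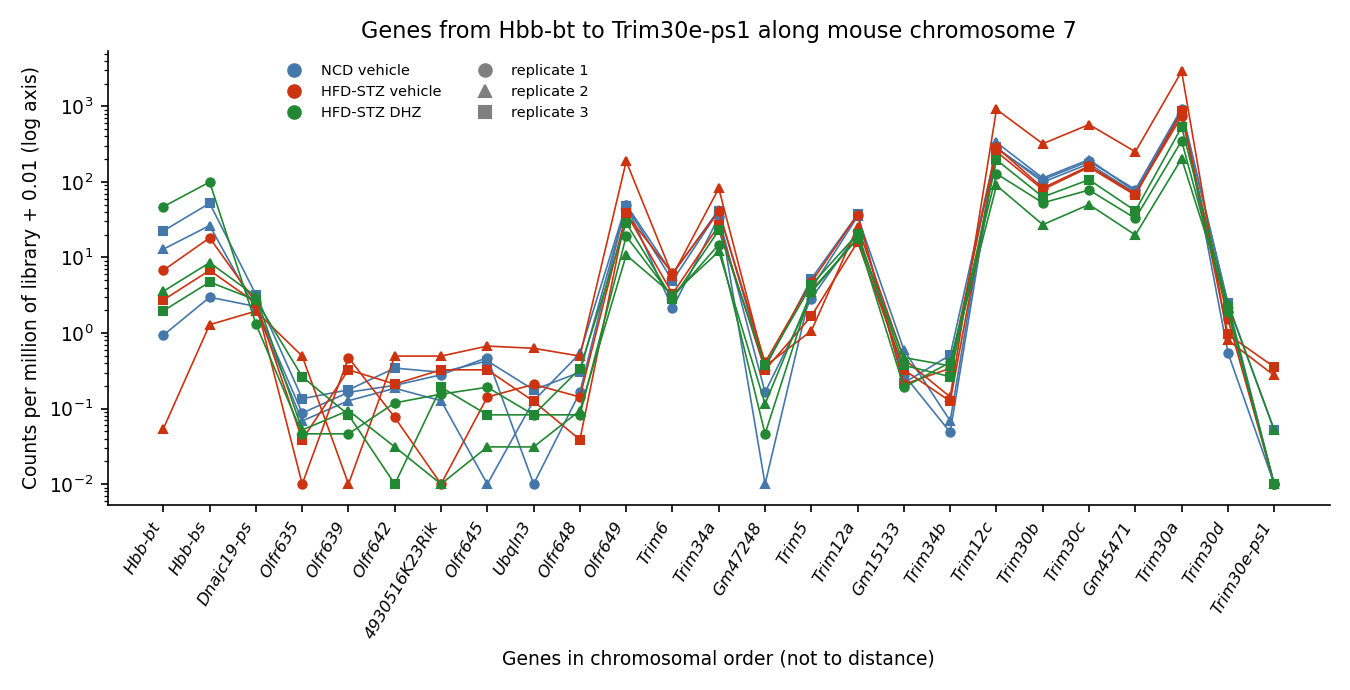
Library-size CPM plus 0.01 on a log axis for the 25 genes between Hbb-bt and Trim30e-ps1 that reached 10 counts in any library, in chromosomal order without distances, with 1 line a library. Olfr649, Trim34a and the run from Trim12c to Trim30a have diabetic replicate 2 on top and the 3 treated libraries at the bottom, with the libraries between them in an order that differs by gene, and Trim5, Trim34b and Trim30d between and beside them do not.

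Whether the diabetic model alone moved the cluster was tested between diabetic and control kidneys in edgeR's quasi-likelihood test over all 17179 genes, with Benjamini-Hochberg adjustment over all of them and a call at adjusted p below 0.05. The members were not chosen on this comparison, but it shares the diabetic libraries with the one they were chosen on. Of the 7 members, 0 were called, against 9 genes called in all (0.0524% of those tested). At an unadjusted p below 0.05 there were 3 members, against 1276 of the 17179 genes. In DESeq2, which gave no adjusted p for Trim34a, 0 of the other 6 were called, against 125 of 17729 genes. The estimated log2 fold change of Trim30a was 2.13 (SE 0.88, adjusted p = 0.64 in edgeR), and the groups overlapped for all 7 members, while 4.83% of genes were higher and 6.56% lower without overlap. Without diabetic replicate 2 it was 0.15 (SE 0.51), the median over the members went from 2.00 to 0.04, and 0 members were called against 0.0446% of genes. The estimates of Trim30b and Trim30d then changed sign, to -0.10 and -0.068. On library size scaling the estimates of Trim12a and Trim30d also changed sign, to -0.25 and -0.75.

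The test thus called no difference between untreated diabetic kidneys and controls in these genes, and the size of the estimates rested on 1 library. A p that misses the threshold does not show that the levels were equal. Without it, the interval of plus or minus 1 SE for Trim12a was 0.04 ± 0.21 and that for Trim34a 0.04 ± 0.33 on the log2 scale.

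The comparison that led to the choice, treated kidneys with diabetic kidneys, gave log2 fold changes of -3.64 for Trim30a, -3.51 for Trim30c, -3.37 for Trim12c, -3.35 for Trim30b, -3.03 for Trim34a, -1.55 for Trim12a and 0.09 for Trim30d. Of the 7 members, 6 were called lower, all but Trim30d, beside 12.0% of all genes tested. On library size scaling 4 were called lower, beside 0.326% of genes, with Trim30a at -2.05, Trim30c at -1.93, Trim12c at -1.81 and Trim30b at -1.75, while Trim34a at -1.59 (adjusted p = 0.066 in edgeR) and Trim12a at -0.47 (adjusted p = 0.59) were not called. On TMM scaling the 6 were also lower without overlap between the groups, beside 19.0% of genes. In library-size CPM, 5 were lower without overlap beside 2.18% of genes, Trim12a overlapped, and Trim30d was higher without overlap beside 39.1% of genes. Because the members were chosen for these values, they are a description and nothing is read from them. Without diabetic replicate 2 the values were -1.66 for Trim30a, -1.51 for Trim30c, -1.43 for Trim12c, -1.24 for Trim30b, -1.43 for Trim34a, -0.83 for Trim12a and 0.40 for Trim30d, with 5 members called against 10.5% of genes called lower. The count of members called was 0 without treated replicate 1 or replicate 2. It was 3 without control replicate 2, where 1751 of 17778 genes were called lower. The number of genes called over the whole table also changed with the library left out, within the range given in the closing section.

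Treated kidneys were also set against the controls on the normal diet, which leaves the library with the highest values out of the groups compared. The treated libraries are those of the comparison used for the choice, so this is not independent of it. The levels were lower in treated kidneys without overlap for 6 of 7 members, against 21.7% of all genes tested, and the 6 also did not overlap on library size scaling, against 11.3%. In edgeR's test over the 9 libraries, 0 of 7 were called, while 13.7% of genes were called in either direction and 7.38% lower. At an unadjusted p below 0.05 there were 0 of 7 members and 5454 of 17179 genes. DESeq2 again gave no adjusted p for Trim34a and called 0 of the other 6, against 3464 of 17729 genes. There 1 member had an unadjusted p below 0.05, against 5973 genes.

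The estimated log2 fold changes were -1.51 for Trim30a (SE 0.87, adjusted p = 0.26 in edgeR), -1.40 for Trim34a (SE 0.76, adjusted p = 0.24) and -0.80 for Trim12a (SE 0.37, adjusted p = 0.16). Those of Trim30c, Trim30b and Trim12c were -1.45, -1.35 and -1.28, and that of Trim30d was 0.32. In this fit the spread of a gene is estimated over the 3 groups together, including diabetic kidneys.

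When diabetic replicate 2 was left out of that estimate, the fold changes stayed within 0.01 on the log2 scale and 6 of 7 members were called lower, against 10.9% of all genes. Trim30a then was at -1.51 (SE 0.47, against 0.87 over the 9 libraries). Trim34a was at -1.39 (SE 0.30, against 0.76) and Trim12a at -0.79 (SE 0.19, against 0.37). The library left out is the one highest in the summed members, and the members were chosen on these treated libraries. These calls are therefore a description and not a test. With the 6 libraries of these groups alone, 5 were called, against 2108 of 16849 genes called lower. Trim30b was the one of the 6 that was not. Over the whole table, leaving out treated replicate 1 lowered the genes called from 2352 to 112, leaving out treated replicate 2 to 245 and leaving out control replicate 1 or 2 to 259 or 779.

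**Figure D4:**
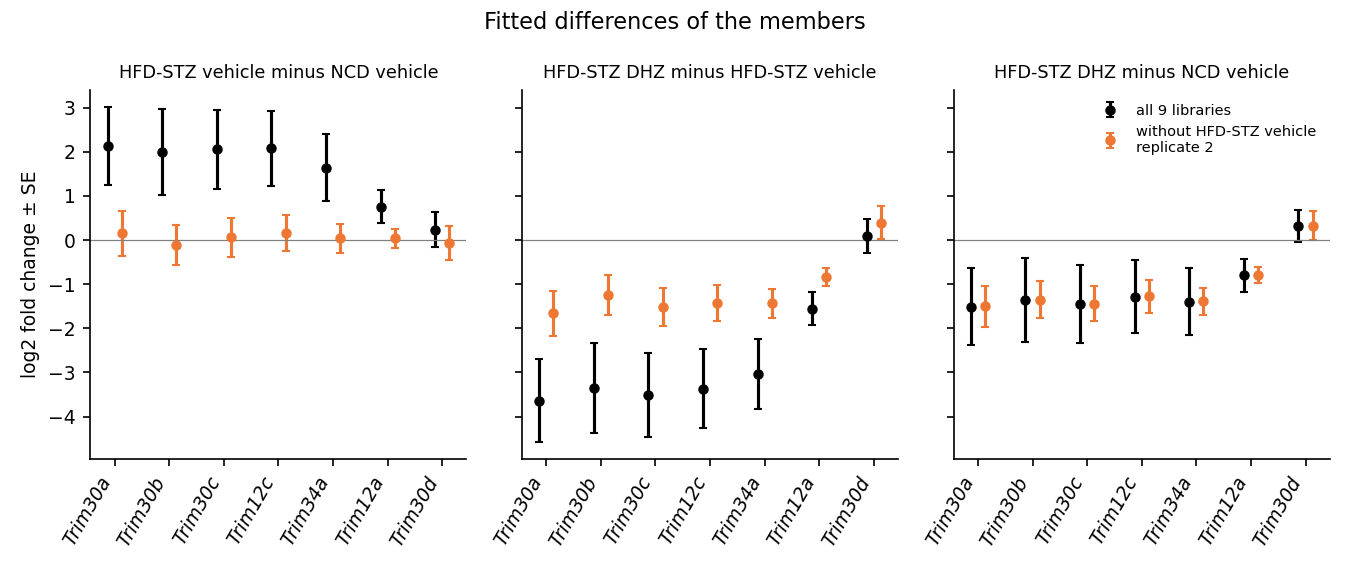
Fitted log2 fold changes of the 7 members with bars of plus or minus 1 SE in the 3 comparisons, with all 9 libraries in black and without diabetic replicate 2 in orange. The orange values lie near 0 for the diabetic model and between -0.79 and -1.51 for 6 members in treated against control kidneys.

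The level of the members was then set against the mt- share of each library. This relation was picked with these data known, so the correlations and their p-values below are a description and not a test. The summed members were at 2171, 1157 and 900.4 TMM-scaled CPM in control kidneys with mt- shares of 51.5%, 41.5% and 39.2%. They were at 1111, 14766 and 1942 in diabetic kidneys with shares of 45.0%, 60.4% and 52.4%. In treated kidneys they were at 523, 295 and 757 with shares of 46.3%, 43.1% and 46.0%. Within each group the library with the highest summed level did not always have the highest share: this held in control kidneys and diabetic kidneys, and in treated kidneys the highest share was in replicate 1 and the highest level in replicate 3. The treated libraries lay below untreated libraries of similar share, with diabetic replicate 1 at 45.0% and 1111 CPM.

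Over the 9 libraries, log2 CPM of Trim30a had a Pearson r of 0.83 with the mt- share (exact permutation p = 0.0082, adjusted over all 17179 genes 0.13) and a Spearman rho of 0.57 (exact permutation p = 0.12, adjusted 0.57). Trim30b, Trim30c and Trim12c had r of 0.83, 0.83 and 0.82, Trim34a 0.77, Trim12a 0.69 and Trim30d 0.09, and none of the 7 passed after adjustment over all genes. Of all genes, 2.35% had an r at least as high as that of Trim30a, and 22.4% had an unadjusted p below 0.05. Without the 2 libraries farthest from the median share, diabetic replicate 2 and control replicate 3, r was 0.67 for Trim30a, 0.52 for Trim34a, 0.29 for Trim12a and -0.70 for Trim30d. For Trim30a without diabetic replicate 2 it was 0.56, and 8.55% of genes then had an r as high. The summed members had an r of 0.83, which was 0.55 without diabetic replicate 2 and 0.61 in library-size CPM. The relation thus rests in large part on that library. The 3 libraries with the highest shares also had the 3 lowest TMM factors, 0.327, 0.715 and 0.721, and the part of the scaling in the relation was not tested beyond the values given. Since every library has a batch date of its own, no value within a batch could be had.

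**Figure D5:**
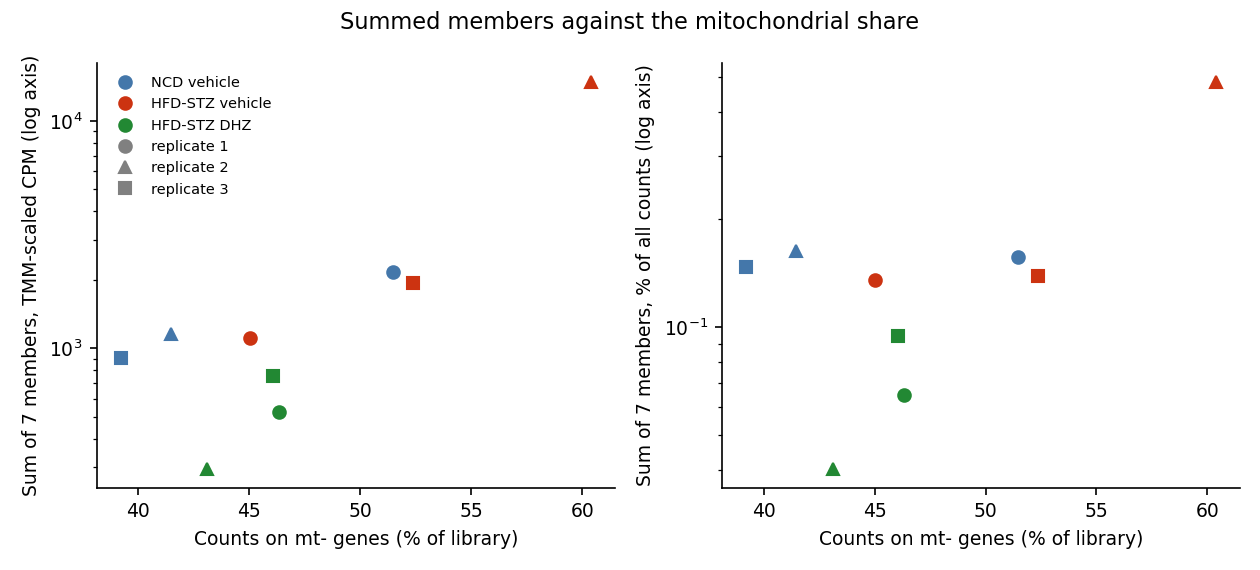
Summed members against the percent of counts on mt- genes in the 9 libraries, with the members as TMM-scaled CPM on the left and as percent of all counts on the right, both with log vertical axes. Diabetic replicate 2 stands alone at the upper right at 60.4%, and the 3 treated libraries lie lowest at shares between 43.1% and 46.3%.

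The genes most like the members across libraries were found by the Pearson r of log2 CPM with the mean log2 CPM of the 7. Outside the members and genes with provisional names, the 5 highest were Olfr649 (r = 0.997), the endosome tether Eea1 (0.985), the splicing kinase gene Clk4 (0.982), Akap8 (0.981) and Eif4enif1 (0.980), over 9 libraries. Olfr649 ranged from 7.88 to 574 TMM-scaled CPM, and the other 4 had narrower ranges, with Eea1 at 45.5 to 146 CPM against 149 to 8901 for Trim30a. Without diabetic replicate 2 the 5 highest were Olfr649 (0.992), Aifm3 (0.991), Clk2 (0.988), Usp48 (0.980) and Trim7 (0.979) over 8 libraries. Among the members, which are part of that mean, Trim12c reached 0.999, Trim12a 0.966 and Trim30d 0.215.

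A processed pseudogene on chromosome 10, Gm9923, named here after its values were seen, had an r of 0.995 over 9 libraries and 0.999 without diabetic replicate 2. It had 1161, 975 and 1162 counts in control kidneys, 644, 2766 and 1456 in diabetic kidneys, and 497, 564 and 794 in treated kidneys. Its transcript shares no 31-base word with the members, and the ratio of Trim30a to it spanned 1.5 times. Gm9923, on another chromosome, kept the proportion that Trim30d, next to Trim30a, did not. It was picked for its high r, so a steady ratio came with the choice. The ratio to Trim30d rests on only 14 to 114 counts a library.

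In a chosen list of interferon-stimulated genes, none of those tested was called lower in treated kidneys over the 9 libraries. Of 39 such genes tested, 0 were called between diabetic kidneys and control kidneys, 6 were higher and 0 lower in treated kidneys than in diabetic kidneys, and 4 were higher and 0 lower than in control kidneys. Of all 17179 genes, 1726 were called higher and 2070 lower against diabetic kidneys, and 1084 higher and 1268 lower against control kidneys. In either direction that was 22.1% and 13.7% of genes, in that order. Against diabetic kidneys the 6 became 2 without treated replicate 1, 3 without treated replicate 2 or 3, and 3 with 1 lower without diabetic replicate 3. On library size scaling, 2 were called higher against diabetic kidneys and 0 against control kidneys. The list's median log2 fold change against diabetic kidneys was 0.23, beside 0.04 over all genes and -3.35 over the members. The summed level of the 40 listed genes was 185 to 236 CPM in control kidneys, 175 to 265 in diabetic kidneys and 240 to 264 in treated kidneys, and in diabetic replicate 2 it was 194, within the range of the others. The guanylate-binding protein gene Gbp2 was at 7.40 ± 3.32 CPM in treated kidneys and 1.75 ± 0.940 in diabetic kidneys (SD, n = 3 each), or 2.19 as a fitted log2 fold change (SE 0.46, adjusted p = 0.0087 in edgeR). Ifit3b, of the Ifit family that binds foreign RNA, was at 1.46 (SE 0.33, adjusted p = 0.011). Both stayed called when any 1 library was left out and on library size scaling (adjusted p = 0.0043 and 0.038 in edgeR).

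Irgm1, an immunity-related GTPase, rose in treated kidneys against diabetic kidneys by 0.83 (SE 0.21, adjusted p = 0.017 in edgeR) and Parp14 by 0.94 (adjusted p = 0.024). Neither was called on library size scaling (adjusted p = 0.085 and 0.097). The Irgm1 call was lost without treated replicate 1 or 2, and that of Parp14 without diabetic replicate 3 or treated replicate 1 or 3. Against control kidneys, the 4 called were Irgm1, Gbp2, Igtp and the RNA sensor gene Ifih1, at log2 fold changes of 1.03, 1.52, 0.94 and 1.00, and the number called was 0 without control replicate 1, treated replicate 1 or treated replicate 2, and 1 without control replicate 2 or treated replicate 3.

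Of 28 tested genes for the receptors and signalling around Trim30a, 0 were called between diabetic kidneys and control kidneys. In treated kidneys 6 were called higher and 3 lower against diabetic kidneys, and 4 higher and 2 lower against control kidneys. Among all genes tested, 22.1% were called against diabetic kidneys and 13.7% against control kidneys, in either direction. The 9 called against diabetic kidneys became 3 without treated replicate 1 or 2, and the 6 against control kidneys became 0 without either of these, 1 without control replicate 1 or 2, 2 without control replicate 3 and 3 without treated replicate 3. The interferon gamma receptor genes Ifngr1 and Ifngr2 rose against diabetic kidneys by 1.15 (SE 0.24, adjusted p = 0.0082 in edgeR) and 1.22 (SE 0.27, adjusted p = 0.011). Nfkbia, which encodes the NF-kB inhibitor and is itself an NF-kB target, fell from 55.1 ± 9.22 to 21.2 ± 6.14 CPM, or -1.37 as a fitted log2 fold change (adjusted p = 0.0066). These 3 stayed called when any 1 library was left out, but not on library size scaling, where 0 of the 28 genes were called and the estimates of the 3 were 1.92, 1.97 and -0.53 beside 0.81 for the median gene. The interferon factor gene Irf3 was at -0.93 (adjusted p = 0.011), a call lost without treated replicate 1 or 2. Map3k7, which encodes TAK1, was at 18.3 ± 0.421 CPM in treated kidneys and 11.2 ± 1.09 in control kidneys (adjusted p = 0.026), and was not called in 6 of 9 fits that each left out 1 library, those without any 1 control or treated library. Tab2, a known target of Trim30a, was at 43.3 ± 4.19 CPM in control kidneys and 58.8 ± 20.9 in diabetic kidneys (adjusted p = 0.72).

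The Trim family outside the 7 members had no common direction. Of 62 such genes with a row, 35 were tested, with 4 higher and 5 lower in treated kidneys against diabetic kidneys, 2 and 2 against control kidneys, and 0 between diabetic kidneys and control kidneys. Their median log2 fold changes were -0.03, -0.02 and 0.05, in that order. The share of all genes called in either direction was 22.1% against diabetic kidneys and 13.7% against control kidneys. Trim8 and Trim56, ligases that act in NF-kB and STING signalling, fell against diabetic kidneys by 1.16 and 1.30 on the log2 scale (adjusted p = 0.0092 and 0.010 in edgeR), and Trim32 rose by 1.49 (adjusted p = 0.016). On library size scaling 1 gene was called higher and 0 lower against diabetic kidneys. With 9 called over all libraries, 0 were called without treated replicate 1, 2 without treated replicate 2 and 5 without diabetic replicate 3. Of the 4 against control kidneys, 0 were called without control replicate 1 or 2 or treated replicate 1 or 2, and 2 without control replicate 3.

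Among the neighbours of the cluster, 12 of 13 listed genes had a row and 7 were tested. Trim6 was called lower in treated kidneys than in diabetic kidneys, at -1.89 (SE 0.44, adjusted p = 0.013 in edgeR) and at -1.03 (adjusted p = 0.018) without diabetic replicate 2, a call lost without treated replicate 1 or 2 and on library size scaling (-0.75, adjusted p = 0.44). Trim5 was at -0.07 (SE 0.28, adjusted p = 0.88), and Trim21, the intracellular antibody receptor, at -0.03 (SE 0.30, adjusted p = 0.91). Trim68, Trim3, Hbb-bt and Hbb-bs were tested and not called in any comparison. Trim34b, Trim30e-ps1 and Trim66 had too few counts to test, and the embryonic globin genes Hbb-y and Hbb-bh1 had no count.

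Most tested leukocyte markers had higher estimates in treated kidneys, while 6 of the members had lower ones. Ptprc was called higher in treated kidneys, at a log2 fold change of 1.29 against diabetic kidneys and 1.52 against control kidneys. The former call was lost without diabetic replicate 3 or treated replicate 3, and the latter without control replicate 1 or treated replicate 1 and on library size scaling. Of 10 macrophage markers, 3 were called higher and 1 lower in each of these comparisons. The estimates of 9 of the 10 were higher in each, and the marker called lower had the direction of most members. Beside them, 22.1% of all genes were called against diabetic kidneys and 13.7% against control kidneys, in either direction. These 10 markers summed to 40.3 to 56.3 CPM in control kidneys, 28.3 to 59.7 in diabetic kidneys and 44.8 to 59.3 in treated kidneys. Csf1r alone ran from 7.88 to 38.7 CPM over the libraries, so 1 gene can weigh heavily in these sums. The sum was lowest in diabetic replicate 2, where Trim30a was highest. Against control kidneys 0 macrophage markers were called without treated replicate 1 or 2, 1 without control replicate 1 or 2, 2 without treated replicate 3, and 0 on library size scaling. Against diabetic kidneys 2 were called without any 1 treated library and on library size scaling. The 8 T cell markers summed to 2.49 to 6.51 CPM over the 9 libraries and the 5 NK cell markers to at most 0.814. The 5 erythroid markers summed to 12.6 to 266 CPM. The part of any of these cells in the counts of the cluster was not tested.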

How the data were processed

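The authors deposited whole-number read counts per gene; the reads were handled with Trim Galore, FastQC and STAR on mouse build GRCm39, per the submitters' processing notes. Not given in the sources used here are the annotation and the rules for strand and multiple matches. Ensembl identifiers were matched to symbols, which 94.08% of rows had. The members and gene lists were chosen with earlier results of these data known.

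Counts were filtered (filterByExpr), TMM-scaled and fitted over 9 libraries with group as the only term in edgeR 4.0.16 (R 4.3.3; glmQLFit, robust), with Benjamini-Hochberg adjustment over 17179 genes. Alternatives used DESeq2 1.42.0, limma 3.58.1 (voom), other scalings, no filter, the 6 libraries compared, a replicate term and leaving out each library. The script was tested on simulated counts. Correlations used all 362880 pairings. The lists take Ddx58 and Tmem173, older symbols of Rigi and Sting1. Exon lengths and gene order come from GENCODE M21 on GRCm38 and promoters from RefSeq GRCm38.p6; no coordinates were converted.

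Named genes were the members, the listed neighbours, the 5 genes most like the members with and without the highest library, and the 4 genes of lowest p per list and comparison. Not all of the last are printed. Depth was 15.1 to 47.5 M (mega) counts a library. Replicates differed by more than sampling noise.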

Additional observations from a re-analysis of the deposited data

How the results depend on the processing

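Without a filter on low counts, 5 members were called for diabetic kidneys against control kidneys and 5 for treated kidneys against control kidneys, in place of 0 and 0. Genes called in all without that filter were 425 and 3380 of 32021, in the same order. With only the 6 libraries compared, 3 members were called for treated kidneys against diabetic kidneys in place of 6, and 5 against control kidneys. All genes called were then 2860 of 16321 and 3981 of 16849. Leaving out 1 library gave 0 to 6 members called against diabetic kidneys, 0 to 6 against control kidneys (6 without diabetic replicate 2) and 0 for the diabetic model. The cause of these changes was not tested.

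The log2 fold change of the diabetic model changed sign on library size scaling for Trim30d (-0.75) and Trim12a (-0.25), without control replicate 1 for Trim30d (-0.04), and without diabetic replicate 2 for Trim30d (-0.068) and Trim30b (-0.10); with 1 library left out, these ranged up to 0.46 and 2.52. That of Trim30d against diabetic kidneys changed sign without diabetic replicate 1 (-0.10) or 3 (-0.05), and reached 0.40 without replicate 2. Of the other values of single members, 85 stayed on their side of the threshold and 31 lost a call against diabetic kidneys, 102 stayed and 16 gained a call against control kidneys, and 108 stayed and 5 gained a call for the diabetic model. Trim34a is left out of these numbers for DESeq2, which gave it no adjusted p.

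Replicate numbers did not pair the samples: 3 of 9 same-numbered pairs had a correlation of deviations over 0.1, and 1 of 9 libraries correlated best with its own number. With a replicate block, 0, 1 and 0 members were called (diabetic model, treatment, treated against control), beside 2, 2159 and 772 genes in all in place of 9, 3796 and 2352.

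Genes called in all for the diabetic model were 29 on library size scaling, 425 without a filter, 125 with DESeq2, 2 with limma-voom, 3 with the 6 libraries and 2 to 28 with 1 library left out. For treatment they were 888 on library size scaling, with 832 higher and 56 lower in place of 1726 and 2070, and 1149 to 4086 with 1 left out. For treated against control they were 36 on library size scaling, 3981 with the 6 libraries and 112 to 3706 with 1 left out.

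The correlation of the summed members with the mt- share, 0.83, was 0.61 on library size scaling, 0.71 for counts left after mt- genes, 0.57 as Spearman's rho, 0.65 without the 2 farthest libraries, and 0.55 to 0.88 with 1 library left out.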
